A study of Homo sapiens with 18 samples.

Results

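The genes described here are 36 listed members of the NF-kB pathway: its subunits, its inhibitors, genes that it is known to switch on, and secreted cytokines and chemokines. They were listed by gene symbol, and 35 of the 36 matched a gene among the 58884 identifiers in the deposited counts. SOD2 matched none of them by symbol and is left without a value here, but 58472 of the identifiers carry a symbol and the rest were not matched another way. Of the rest, ENSG00000112096 (28582 counts over the 18 libraries) and ENSG00000285441 (1 count) overlap the RefSeq span of SOD2 on chr6, and whether either counts SOD2 was not tested, so SOD2 is not among the members found low. RNA was sequenced from T47D cells, an established estrogen receptor-positive luminal breast cancer line, in wild-type (WT) form and with a PARP1 knockout (KO). Each genotype was grown for 48 h with the vehicle DMSO, with 10 µM niraparib or with 10 µM olaparib, both inhibitors of PARP enzymes, and each of the 6 groups has 3 libraries. The comparisons ask what either drug does to gene expression when PARP1 is present and when it is not. The WT libraries carry the line name T47D AAV and the PARP1 KO libraries the line name T47D JL, and neither the meaning of these names nor whether the KO line is a single clone is given in the sources used here. The libraries held between 28890837 and 52251288 counted reads.

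NF-kB is a family of dimeric transcription factors built from the subunits p50 (made from NFKB1), p52 (made from NFKB2), RELA, RELB and REL. In resting cells IkB proteins such as those of NFKBIA, NFKBIB and NFKBIE hold the dimers in the cytoplasm, and signals from TNF, interleukin-1 and Toll-like receptors lead to IkB breakdown and release of the dimers, whereas a separate branch through MAP3K14 yields p52 with RELB. Among the genes that the dimers switch on are their own inhibitors NFKBIA and TNFAIP3, survival genes such as BIRC3, adhesion molecules such as ICAM1, and inflammatory cytokines, and luminal breast cancer lines are known for low activity of the pathway when left unstimulated.

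PARP1 itself was read first as a check of the genotype labels. PARP1 (chr1:226360691-226408093, GRCh38) was at 340.9 ± 17.9 CPM (mean ± SD, n = 9; CPM is the standard scaling of a read count by its library's total) in the WT libraries, which ran from 313 to 368 CPM. The 9 KO libraries were at 24.8 ± 1.34 CPM and ran from 22.9 to 27.1 CPM, which is 7.27% of the WT mean. No KO library came near the lowest WT library, so every library matched its genotype label in this measure (exact permutation test over the 18 libraries, 2-sided, p = 4.1e-05, the smallest value the design allows).

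The cell type was checked against marker genes. The 9 luminal markers summed to 14003 ± 346 CPM in WT with DMSO, 10988 ± 429 CPM with niraparib and 10912.5 ± 241 CPM with olaparib (mean ± SD, n = 3), with KRT8 the most abundant. In PARP1 KO they summed to 15373 ± 397 CPM with DMSO, 14269 ± 282 CPM with niraparib and 13270.2 ± 718 CPM with olaparib. The luminal sum was high in every group, and in either genotype every treated library had a lower sum than every DMSO library. Not every marker followed the sum, as EPCAM averaged 191 CPM in WT with DMSO, 198 CPM with niraparib and 208 CPM with olaparib. The part of these shifts in the results below was not tested. Of the 9 immune markers, 7 were below 0.1 CPM on average. All 3 endothelial markers, with VWF the most abundant, were below 0.1 CPM, and of the 3 basal markers KRT5 and KRT14 were below 0.1 CPM while TP63 averaged 1.72 CPM. The basal sum was 2.59 ± 0.130 CPM in WT with niraparib and between 1.47 and 1.90 CPM in the other groups. Of the 5 fibroblast markers COL1A1 made up most of the sum at 110.2 CPM and 2 were below 0.1 CPM. In bulk samples fewer cells of a type and less RNA per cell cannot be told apart.

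Some libraries stood apart from the others of their group over all genes. By a chi-square per gene between pairs of replicates, a measure that also grows with depth, WT niraparib replicate 2 was at 12.2 and 16.8 from the other libraries of its group, which were at 3.41 from each other. WT DMSO replicate 1 was at 18.9997 and 17.5 from the others, which were at 3.28, and KO niraparib replicate 3 was at 11.7 and 14.7, beside 3.13. In the group of KO olaparib the pairs ran from 8.21 to 18.3, in that of KO DMSO from 3.15 to 10.52, and in that of WT olaparib from 3.67 to 4.92. WT niraparib replicate 2 was the highest library of its group for 15 of the 23 judged members, RELB, NFKB1, NFKBIB, TNFAIP3, LIF, TNF and IL32 among them, and for CCL2. Other groups were as uneven, with WT olaparib replicate 1 the highest for 17 of the 23 and KO olaparib replicate 1 for 15. Without WT niraparib replicate 2, the log2 fold changes with niraparib in WT were 1.96 for RELB, 1.10 for NFKBIB, 1.34 for TNFAIP3, 2.73 for LIF, 1.39 for TNF, 2.78 for IL32 and 1.73 for CCL2, beside 1.99, 1.12, 1.44, 3.05, 1.54, 2.89 and 2.06 with it. ICAM1 was at 0.76 without it and 0.70 with it. The same 8 members were called with niraparib in WT without this library, and also without WT DMSO replicate 1 (edgeR).

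Of the 36 members, 23 averaged at least 0.5 CPM over the 18 libraries and were judged, 12 were below that level and are too low to judge, and 1 had no match. The levels of the judged members spanned a wide range per length of transcript. IER3, an early response gene tied to survival, was the highest at 197 RPKM (mean of 18 libraries; RPKM is the CPM divided by the exon length in kilobases), ahead of the ubiquitin ligase gene BIRC2 at 27.003 RPKM and the subunit gene RELA at 24.007 RPKM. NFKBIA at 22.9 RPKM, TNIP1 at 21.5 RPKM and NFKB2 at 17.7 RPKM came next. RELB stood at 2.30 RPKM and TNFAIP3 at 0.878 RPKM, and the lowest judged members were the cytokine genes LIF at 0.340 RPKM and IL32 at 0.294 RPKM. IL32 averaged below 0.5 CPM in WT with DMSO (0.390 CPM), in KO with DMSO (0.411 CPM) and in KO with olaparib (0.420 CPM), and LIF did so in KO with DMSO (0.376 CPM). Since a member can pass the level through the group where it is high, counts and medians over the judged members are a description only.

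Most of the members that are too low to judge were chemokines and cytokines. CXCL1, a chemokine that draws neutrophils, had 55 counts over all 18 libraries, its relatives CXCL2 and CXCL3 had 82 and 89, and CXCL8, the gene of interleukin-8, had 21 counts in 9 of the libraries. CXCL10 had 12 counts in 6 libraries and CCL20 had 24 counts in 11 libraries. Among the cytokines, IL6 had 3 counts in 2 libraries, CSF2 had 4 counts in 2 libraries, IL1B had 1 count and IL1A had 0. TNFRSF9, a TNF receptor family member, had 9 counts in 6 libraries. For IL1A the 0 counts allow a level of up to 0.0045 CPM over all 18 libraries pooled (3 counts). In the smallest library they allow up to 0.104 CPM. Such limits cover counting error only, whereas the intervals given elsewhere come from the edgeR fit and rest on the spread between libraries. CCL2, a chemokine that draws monocytes, was the most counted of these 12 genes with 148 counts, at least 1 in each library. The plot of counts of the low members gives them library by library, and no member other than CCL2 had more than 17 counts in a library (CXCL2 in WT niraparib replicate 2).

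**Figure D1:**
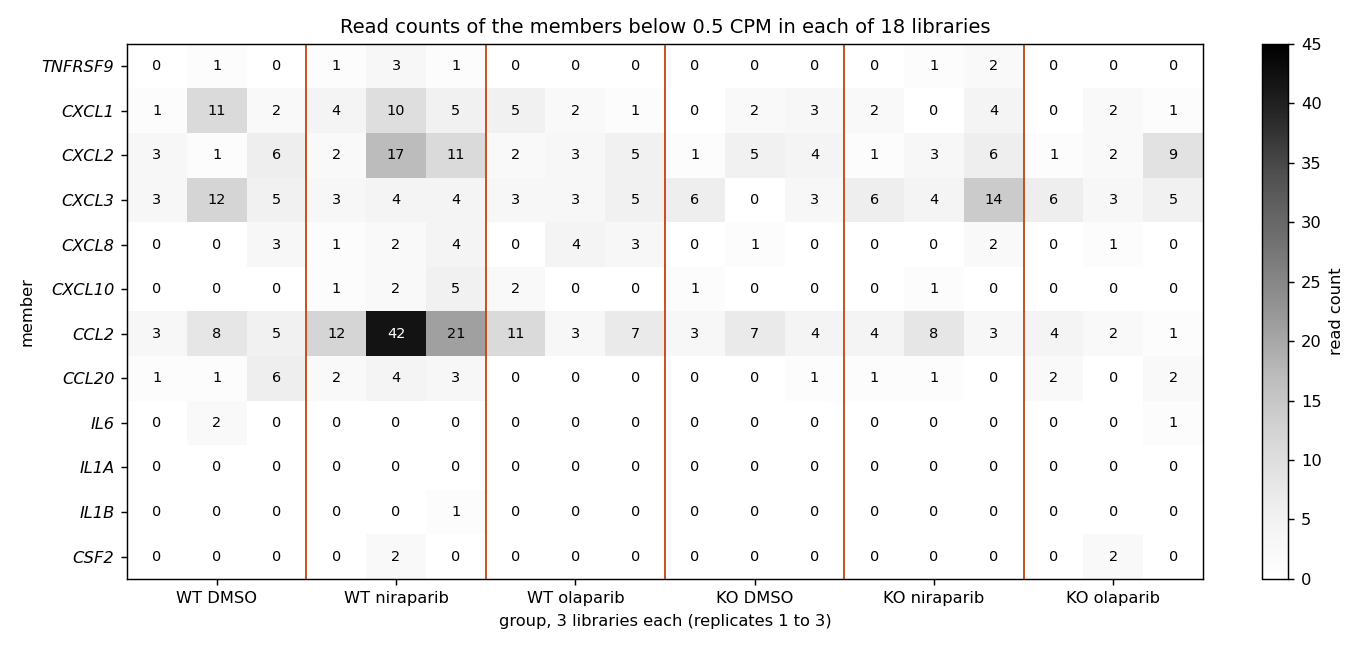
Read counts (number in each cell and its shade) of the 12 members too low to judge (vertical axis) in each of the 18 libraries (horizontal axis, 3 libraries per group of genotype and treatment). CCL2 has 12, 42 and 21 counts in WT with niraparib, against 3, 8 and 5 in WT with DMSO, and IL1A has 0 counts in all 18 libraries.

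Promoter stretches are shown for called members and for some that are too low to judge, with the kappa-B motif that was looked for in them. RefSeq promoter sequences (GRCh38.p14, 250 bases before to 50 after the start of the gene) were at hand for 30 of the 36 members and for 8 of the 11 that were called in at least 1 comparison, with RELB, LIF and CCL2 missing among the called ones and NFKBIE, IER3 and CSF1 among the others. They were searched on both strands for the kappa-B motif GGGNNNTTCC, which 1766 of the 27305 promoters of that length hold (6.47%), and for the degenerate decameric kappa-B consensus, which overlaps with it and which 2958 of them hold (10.8%). The spelled motif was found in 13 members and the consensus in 14, in each case with 5 called members among them. The stretches below hold matches in NFKB1 (chr4:102501290-102501339, plus strand), NFKBIA (chr14:35404801-35404850, minus strand), TNFAIP3 (chr6:137867172-137867233, plus strand, with a pair of matches), BIRC3 (chr11:102317265-102317314, plus strand) and IL32 (chr16:3065284-3065333, plus strand), the 5 called members with a match. Next to them stand CXCL1 (chr4:73869294-73869344, plus strand), CXCL2 (chr4:74099243-74099293, minus strand) and CXCL3 (chr4:74038738-74038788, minus strand), 3 members that hold a match and are too low to judge. Each is written 5′ to 3′ on the strand of the gene, and capitals mark the letters that match GGGNNNTTCC on either strand.
NFKB1: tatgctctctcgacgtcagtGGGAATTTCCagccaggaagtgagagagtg
NFKBIA: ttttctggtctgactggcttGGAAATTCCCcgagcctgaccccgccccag
TNFAIP3: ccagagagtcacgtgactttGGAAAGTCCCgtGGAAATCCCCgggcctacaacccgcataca
BIRC3: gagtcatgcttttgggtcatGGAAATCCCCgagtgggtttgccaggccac
IL32: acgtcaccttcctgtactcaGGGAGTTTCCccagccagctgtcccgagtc
CXCL1: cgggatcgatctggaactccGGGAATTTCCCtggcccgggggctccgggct
CXCL2: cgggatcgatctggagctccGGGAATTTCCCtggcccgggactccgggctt
CXCL3: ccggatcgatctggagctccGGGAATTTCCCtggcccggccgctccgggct
The windows of NFKBIB, ICAM1 and TNF held neither motif, which says only that these letters are not in those 300 bases. The starts are those of RefSeq and can differ from the starts of the gene spans given for the members. The matches of IL32 and CXCL3 lie inside those spans (chr16:3065297-3082192 and chr4:74036589-74038807), though before the RefSeq starts. A match is a description of the sequence and shows no binding.

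The counts of members called in each comparison are given with the share of all tested genes called the same way. Counts at an unadjusted P below 0.05 have no such share beside them and are a description only. A gene was called when its adjusted P value was below 0.05 and its change more than 1.5-fold (edgeR quasi-likelihood F test, Benjamini-Hochberg over all genes tested). In WT, niraparib against DMSO had 8 of the 29 members tested called higher and 0 lower, where 8.1% of the 22446 tested genes were called higher and 5.72% lower. Of these 8, 7 are judged members and the other, CCL2, is too low to judge. Olaparib against DMSO in WT had 6 of 29 called higher and 0 lower, against 2.06% and 1.98% of all tested genes. Between niraparib and olaparib in WT, 5 members (4 judged ones and CCL2) were called higher with niraparib and 2 lower, against 5.62% and 3.33%. In PARP1 KO, niraparib against DMSO had 0 of the 27 members tested called by edgeR in either direction and 0 by DESeq2, with 4 of 27 at an unadjusted P below 0.05, where 0.0136% of the 22037 tested genes were called higher and 0% lower. Olaparib against DMSO in PARP1 KO had 3 of 27 called higher and 0 lower, against 0.467% and 0.336% of all tested genes. Between niraparib and olaparib in PARP1 KO, 2 members were called lower with niraparib and 0 higher, against 0.449% lower and 0.622% higher. For the genotypes with DMSO, 0 of the 30 members tested were called by edgeR and 0 by DESeq2, with 3 of 30 at an unadjusted P below 0.05, where 0.0608% of the 24675 tested genes were called higher in KO and 0.0851% lower. The genotype by drug interaction is the change in PARP1 KO minus the change in WT, and for niraparib it had 9 members called lower and 0 higher, against 5.2% and 3.68% of all tested genes. For olaparib it had 1 member called lower and 0 higher, against 0.381% and 0.276%.

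Most judged members were above 0 with either drug in WT. The median log2 fold change of the 23 judged members was 0.44 with niraparib in WT, with 21 of them above 0, beside -0.0096 for the 14811 genes at or above 0.5 CPM. With olaparib in WT it was 0.24, with 22 above 0, beside 0.0067. In PARP1 KO the medians were 0.032 with niraparib, with 13 above 0, and 0.069 with olaparib, with 19 above 0, beside -0.0047 and 0.0011 for all genes at that level. The drug comparisons of a genotype share their DMSO libraries. The map of fold changes of the judged members shows the WT niraparib and WT olaparib columns mostly above 0, the PARP1 KO niraparib column mostly closer to 0, and NFKBIA and TRAF2 as the members below 0 with niraparib in WT.

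**Figure D2:**
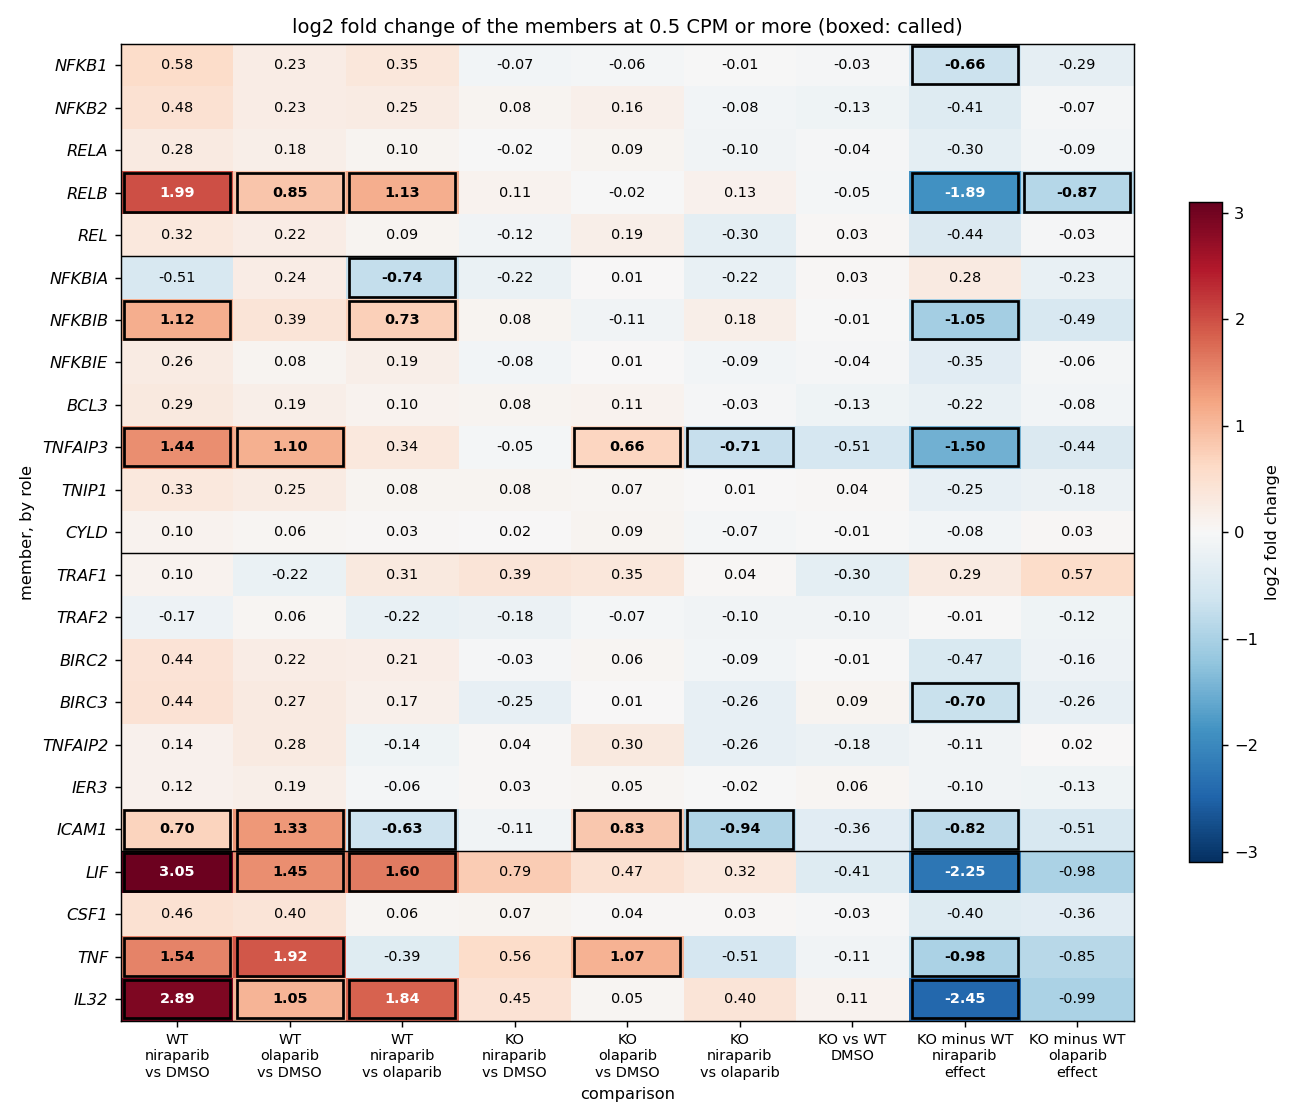
Log2 fold changes (edgeR, printed and as color, red above 0 and blue below) of the 23 judged members (vertical axis, by role) in the 9 comparisons (horizontal axis), with called changes boxed. LIF at 3.05 and IL32 at 2.89 with niraparib in WT are the highest values, and 0 members are called with niraparib in PARP1 KO.

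Among the 5 subunit genes, RELB was called with both drugs in WT and the other 4 were not. RELB (ENSG00000104856, chr19:45001449-45038198), the partner of p52 in the noncanonical branch, was at 3.83, 4.55 and 4.06 CPM in the WT DMSO libraries, 17.98, 18.6 and 16.5 CPM with niraparib and 7.85, 7.17 and 7.67 CPM with olaparib. In the PARP1 KO libraries RELB was at 4.36, 3.47 and 4.15 CPM with DMSO, 4.12, 5.08 and 3.90 CPM with niraparib and 4.15, 3.94 and 3.66 CPM with olaparib. The 3 WT groups did not overlap, with every niraparib library above every olaparib library and these above DMSO, whereas the KO groups all lay together at the WT DMSO level. In WT, RELB rose 3.96-fold with niraparib (95% interval 3.42 to 4.59, adjusted P = 1.5e-12, edgeR) and 1.81-fold with olaparib (1.55 to 2.11, adjusted P = 6.1e-06). In PARP1 KO its log2 fold changes were 0.11 with niraparib (95% interval -0.21 to 0.42) and -0.02 with olaparib (-0.34 to 0.30).

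NFKB1 (ENSG00000109320, chr4:102501331-102617302), the source of p50, was at 23.8, 23.8 and 23.02 CPM in WT with DMSO, 36.6, 38.6 and 37.3 CPM with niraparib and 28.4, 26.6 and 27.8 CPM with olaparib. Its PARP1 KO libraries were at 23.8, 23.3 and 21.9 CPM with DMSO, 23.1, 19.9 and 23.3 CPM with niraparib and 23.1, 22.8 and 19.7 CPM with olaparib. The WT groups did not overlap and the KO groups did. With niraparib in WT the ratio was 1.49 (95% interval 1.37 to 1.63, adjusted P = 6.3e-08, edgeR), just under the 1.5-fold needed for a call (without WT DMSO replicate 2 it was called, at 0.59 on the log2 scale), and with olaparib it was 1.17 (1.07 to 1.28, adjusted P = 0.0095). NFKB2 and RELA passed the adjusted P threshold below 1.5-fold with both drugs in WT: NFKB2 at log2 fold changes of 0.48 with niraparib and 0.23 with olaparib, RELA at 0.28 and 0.18 (edgeR, adjusted P = 4.3e-08, 0.0016, 3.8e-05 and 0.0068 in that order). Over the 18 libraries NFKB2 ran from 64.8 to 119 CPM and RELA from 114 to 162 CPM. REL, at 11.6 to 21.4 CPM, had a log2 fold change of 0.32 with niraparib in WT that did not pass (adjusted P = 0.071, edgeR). For REL, 43.3% of its exon bases lie over another gene of its own strand, where the deposited counts leave reads out.

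Of the 7 genes of inhibitors and negative feedback, NFKBIB and TNFAIP3 were called with niraparib in WT and TNFAIP3 with olaparib. TNFAIP3 (ENSG00000118503, chr6:137867214-137883312) encodes A20, a ubiquitin-editing enzyme that shuts off signals to NF-kB. It was at 3.63, 2.74 and 3.07 CPM in WT with DMSO, 8.57, 10.3 and 8.11 CPM with niraparib and 7.10, 6.39 and 6.57 CPM with olaparib. In PARP1 KO it was at 2.91, 1.78 and 1.78 CPM with DMSO, 1.80, 2.13 and 2.35 CPM with niraparib and 3.44, 3.52 and 3.19 CPM with olaparib. The treated WT libraries all lay above the WT DMSO libraries, and in PARP1 KO the olaparib libraries lay above all others while niraparib and DMSO overlapped. In WT, TNFAIP3 rose 2.71-fold with niraparib (95% interval 2.24 to 3.27, adjusted P = 1.1e-08, edgeR) and 2.14-fold with olaparib (1.77 to 2.60, adjusted P = 4.2e-06). In PARP1 KO it was 1.57-fold higher with olaparib (1.19 to 2.09, adjusted P = 0.042, edgeR). That call was lost with the replicate number as a block (log2 fold change 0.67, adjusted P = 0.0545), without KO olaparib replicate 1, 2 or 3 (adjusted P = 0.092, 0.15 and 0.050), and without KO DMSO replicate 2 or 3 (0.54 both times, adjusted P = 0.190 and 0.185), with adjusted P from 0.0109 to 0.190 over its alternatives (edgeR and DESeq2).

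NFKBIB (ENSG00000104825, chr19:38899700-38908893), which encodes IkB-beta, was at 16.9, 15.1 and 15.3 CPM in WT with DMSO, 36.3, 37.5 and 35.2 CPM with niraparib and 20.2, 21.1 and 20.5 CPM with olaparib. With PARP1 knocked out it was at 15.8, 14.7 and 15.96 CPM with DMSO, 15.7, 16.2 and 17.5 CPM with niraparib and 16.1, 13.1 and 13.6 CPM with olaparib. The niraparib libraries of WT stood far above all 15 others, and all KO groups overlapped. NFKBIB rose 2.17-fold with niraparib in WT (95% interval 1.97 to 2.39, adjusted P = 1.5e-11, edgeR), and its ratio with olaparib in WT was 1.31 (1.19 to 1.44, adjusted P = 2.95e-04), below the 1.5-fold needed.

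NFKBIA (ENSG00000100906, chr14:35401511-35404749), which encodes IkB-alpha, had the opposite order for the drugs in WT. It was at 55.2, 56.4 and 55.6 CPM in WT with DMSO, 41.8, 41.3 and 42.7 CPM with niraparib and 72.5, 61.7 and 63.5 CPM with olaparib. The KO libraries held 59.3, 56.9 and 53.2 CPM with DMSO, 47.1, 51.8 and 48.2 CPM with niraparib and 60.0, 55.7 and 53.2 CPM with olaparib. All niraparib libraries of either genotype lay below all DMSO libraries, and the WT olaparib libraries lay above WT DMSO. The log2 fold changes against DMSO were -0.51 with niraparib in WT (adjusted P = 4.5e-07, edgeR), 0.24 with olaparib in WT (adjusted P = 0.0056) and -0.22 with niraparib in PARP1 KO (unadjusted P = 0.0024, adjusted P = 0.22), all below 1.5-fold. TNIP1 and BCL3 passed the adjusted P threshold below 1.5-fold with niraparib in WT, as did NFKBIE, at 0.33, 0.29 and 0.26 on the log2 scale (edgeR, adjusted P = 1.65e-05, 0.0049 and 0.027), and TNIP1 did so with olaparib at 0.25 (adjusted P = 0.0012). CYLD, a deubiquitinase that restrains the pathway, ran from 35.6 to 44.97 CPM over the 18 libraries, and its log2 fold changes in WT were 0.10 with niraparib and 0.06 with olaparib (95% intervals -0.02 to 0.21 and -0.05 to 0.18).

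Of the 8 matched TNF receptor adaptors and survival targets, ICAM1 was called with both drugs in WT and no other was called against DMSO. ICAM1 (ENSG00000090339, chr19:10271093-10286615), an adhesion molecule that binds leukocytes, was at 7.16, 9.07 and 8.34 CPM in WT with DMSO, 15.02, 13.4 and 14.6 CPM with niraparib and 22.2, 18.6 and 21.7 CPM with olaparib. In PARP1 KO the libraries held 6.17, 6.61 and 6.44 CPM with DMSO, 5.81, 6.19 and 5.97 CPM with niraparib and 12.4, 11.1 and 10.3 CPM with olaparib. In both genotypes the olaparib libraries were the highest, and the niraparib libraries were above DMSO in WT but overlapped DMSO in PARP1 KO. ICAM1 rose 2.52-fold with olaparib in WT (95% interval 2.19 to 2.91, adjusted P = 5.65e-09, edgeR), 1.62-fold with niraparib in WT (1.41 to 1.88, adjusted P = 6.6e-06) and 1.77-fold with olaparib in PARP1 KO (1.52 to 2.07, adjusted P = 9.7e-05). With niraparib in PARP1 KO its log2 fold change was -0.11 (95% interval -0.34 to 0.12).

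BIRC3 (ENSG00000023445, chr11:102317450-102339403), an inhibitor of apoptosis, was at 8.65, 8.44 and 9.55 CPM in WT with DMSO, 14.1, 12.2 and 12.4 CPM with niraparib and 10.98, 10.6 and 10.7 CPM with olaparib. Its KO values were 10.6, 8.397 and 9.12 CPM with DMSO, 8.69, 8.32 and 6.97 CPM with niraparib and 9.68, 9.03 and 9.44 CPM with olaparib. The 3 WT groups did not overlap, and in PARP1 KO the niraparib libraries overlapped DMSO at the lower end. Against DMSO in WT its ratios were 1.36 with niraparib and 1.21 with olaparib (adjusted P = 6.1e-04 and 0.048, edgeR), both below 1.5-fold. Its neighbor BIRC2 (chr11:102347211-102378670, same strand) stood at ratios of 1.35 and 1.17 (adjusted P = 4.4e-08 and 7.9e-04, edgeR). TRAF2, an adaptor of the TNF receptor, had a log2 fold change of -0.17 with niraparib in WT (adjusted P = 0.023, edgeR), and IER3 and TNFAIP2 had 0.19 and 0.28 with olaparib (adjusted P = 0.013 and 0.020). TRAF1 was at 1.60 to 2.92 CPM over the 18 libraries and passed in none of the 9 comparisons with edgeR.

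Of the 8 cytokine genes, LIF, TNF and IL32 were called with both drugs in WT, CSF1 was not called, and the other 4 were too low to judge. LIF (ENSG00000128342, chr22:30240453-30246759), a cytokine of the interleukin-6 family, was at 0.726, 0.459 and 0.371 CPM in WT with DMSO, 3.12, 6.20 and 4.003 CPM with niraparib and 1.27, 1.35 and 1.54 CPM with olaparib. Its PARP1 KO values were 0.377, 0.324 and 0.426 CPM with DMSO, 0.381, 0.554 and 0.999 CPM with niraparib and 0.453, 0.514 and 0.605 CPM with olaparib. The WT groups were in the order DMSO, olaparib, niraparib with no overlap, and the niraparib libraries differed the most among themselves. LIF rose 8.27-fold with niraparib in WT (95% interval 5.60 to 12.2, adjusted P = 1.0e-08, edgeR) and 2.73-fold with olaparib (1.78 to 4.19, adjusted P = 0.0014). In PARP1 KO the log2 fold changes were 0.79 with niraparib (95% interval -0.02 to 1.60) and 0.47 with olaparib (-0.36 to 1.30), and neither passed the test.

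IL32 (ENSG00000008517, chr16:3065297-3082192), a cytokine gene of immune and epithelial cells, was at 0.429, 0.344 and 0.396 CPM in WT with DMSO, 2.87, 3.57 and 2.76 CPM with niraparib and 0.698, 1.10 and 0.597 CPM with olaparib. Among the KO libraries the values were 0.377, 0.324 and 0.532 CPM with DMSO, 0.623, 0.585 and 0.523 CPM with niraparib and 0.427, 0.563 and 0.269 CPM with olaparib. The WT niraparib libraries stood well above all others, the WT olaparib libraries stood above WT DMSO by less, and the KO groups overlapped. IL32 rose 7.42-fold with niraparib in WT (95% interval 5.06 to 10.9, adjusted P = 1.3e-08, edgeR) and 2.08-fold with olaparib (1.35 to 3.20, adjusted P = 0.015). The olaparib call was lost without WT olaparib replicate 2 (log2 fold change 0.75, adjusted P = 0.12) and without WT DMSO replicate 2 (0.97, adjusted P = 0.064), with adjusted P from 0.0098 to 0.12 over its alternatives (edgeR and DESeq2). Of its exon bases, 4.02% overlap another gene on the same strand.

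TNF (ENSG00000232810, chr6:31575565-31578336), the cytokine that sets off the canonical branch, was at 0.957, 1.47 and 0.866 CPM in WT with DMSO, 3.27, 4.15 and 3.02 CPM with niraparib and 4.75, 2.75 and 5.38 CPM with olaparib. Without PARP1 it was at 0.889, 1.39 and 0.851 CPM with DMSO, 1.35, 1.69 and 1.57 CPM with niraparib and 2.21, 2.10 and 2.18 CPM with olaparib. In WT both drugs lay above DMSO and overlapped each other, and in PARP1 KO the olaparib libraries lay above the rest while niraparib overlapped DMSO. TNF rose 2.90-fold with niraparib in WT (95% interval 1.99 to 4.24, adjusted P = 1.1e-04, edgeR), 3.79-fold with olaparib in WT (2.60 to 5.53, adjusted P = 4.6e-05) and 2.10-fold with olaparib in PARP1 KO (1.51 to 2.94, adjusted P = 0.0056). With niraparib in PARP1 KO its log2 fold change was 0.56 (95% interval 0.06 to 1.06, adjusted P = 0.48, edgeR). CSF1, a growth factor of macrophages at 3.67 to 7.57 CPM, passed the adjusted P threshold in WT below 1.5-fold, at 0.46 with niraparib and 0.40 with olaparib on the log2 scale (adjusted P = 0.0034 and 0.021, edgeR).

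Among the 7 chemokine genes, all too low to judge by their average, CCL2 (ENSG00000108691, chr17:34255218-34257203) was the only one called in any of the 9 comparisons with edgeR. It had 3, 8 and 5 counts in WT with DMSO, 12, 42 and 21 with niraparib and 11, 3 and 7 with olaparib, that is 0.0990, 0.153 and 0.124 CPM, 0.374, 0.814 and 0.542 CPM, and 0.284, 0.0808 and 0.220 CPM. The PARP1 KO groups held 14, 15 and 7 counts in total with DMSO, niraparib and olaparib. The WT niraparib libraries lay above all others, and the remaining groups overlapped. CCL2 rose 4.18-fold with niraparib in WT (95% interval 2.01 to 8.69, adjusted P = 0.0023, edgeR), and the wide interval goes with the few counts. The plot of levels of the called members sets these values side by side for the 6 groups, with RELB, NFKBIB, LIF and IL32 highest in WT with niraparib, and ICAM1 and NFKBIA highest in WT with olaparib.

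**Figure D3:**
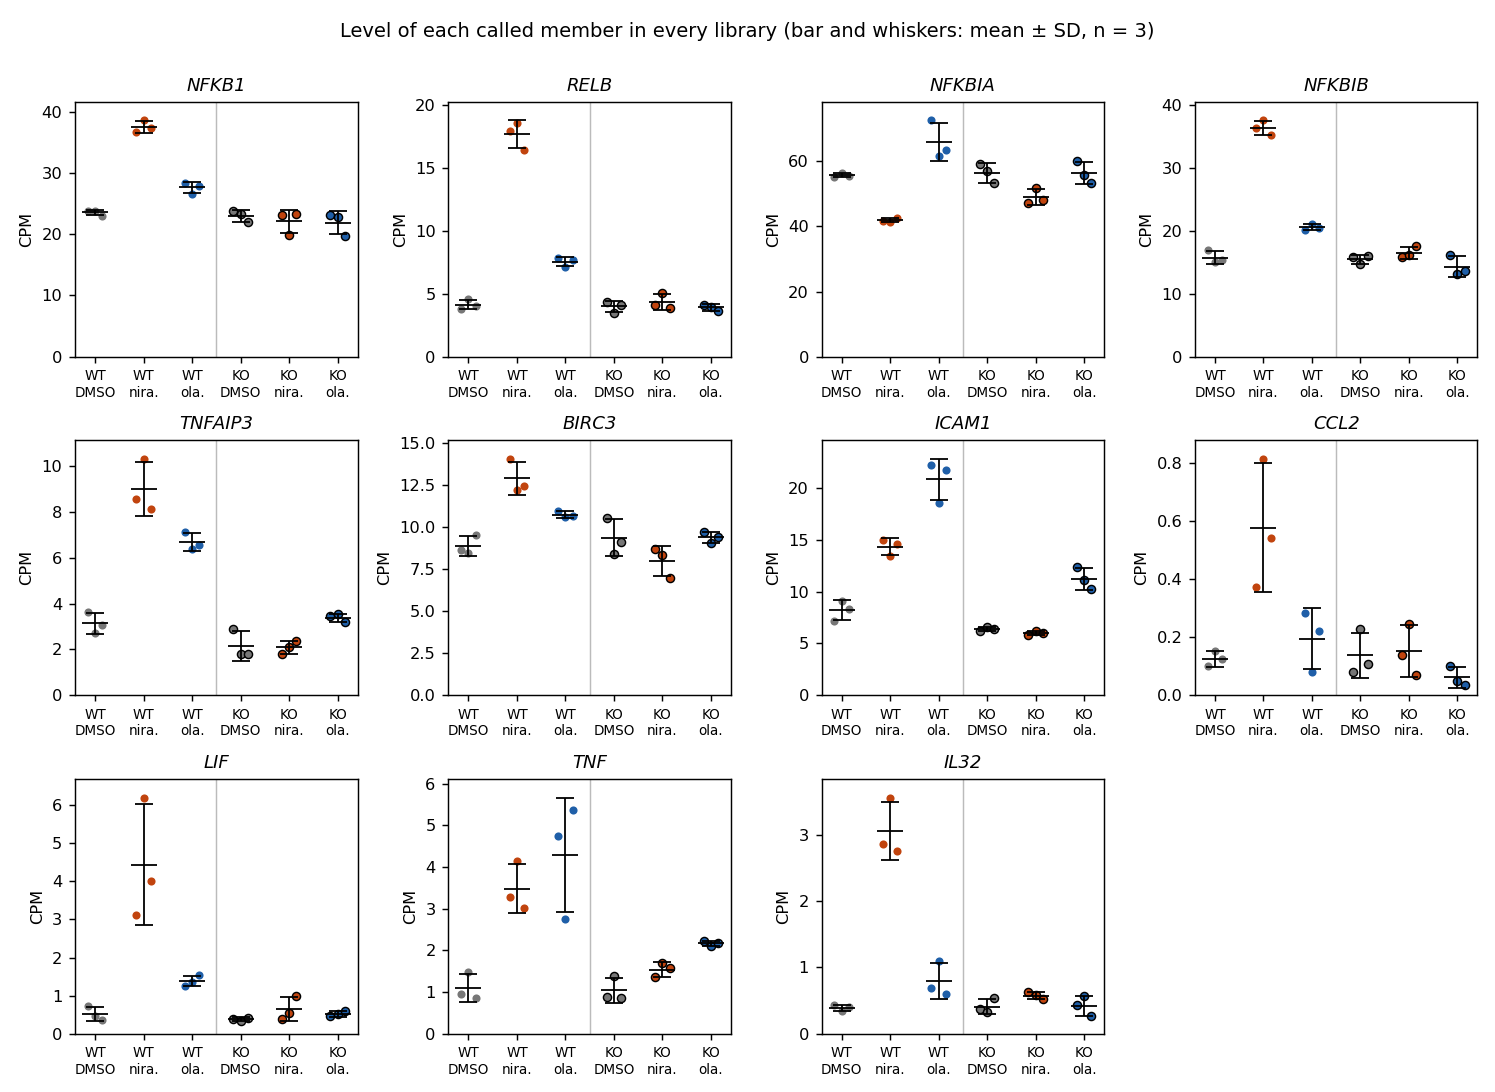
Level in CPM of each member called in at least 1 comparison, a panel for each gene, with 1 point per library in the 6 groups of genotype and treatment, a horizontal bar at the mean of the 3 libraries and whiskers of 1 SD. RELB stands at 17.7 ± 1.11 CPM in WT with niraparib, against 4.15 ± 0.371 CPM in WT with DMSO and 4.37 ± 0.629 CPM in PARP1 KO with niraparib.

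The drugs were also compared with each other at the same dose and time. In WT, 4 judged members were higher with niraparib than with olaparib: RELB by 2.19-fold, NFKBIB by 1.66-fold, LIF by 3.03-fold and IL32 by 3.57-fold (edgeR, adjusted P = 1.0e-08, 1.9e-08, 1.9e-05 and 3.5e-06). NFKBIA and ICAM1 were lower with niraparib, at log2 differences of -0.74 and -0.63 (adjusted P = 3.2e-09 and 1.8e-05, edgeR). ICAM1 came below 1.5-fold without WT olaparib replicate 1 (-0.58) or WT niraparib replicate 2 (-0.57), with adjusted P from 5.3e-11 to 5.1e-04 over its alternatives (edgeR and DESeq2). CCL2 was 2.79-fold higher with niraparib (adjusted P = 0.023, edgeR), a call that was lost without WT olaparib replicate 2 (log2 fold change 1.10, adjusted P = 0.11) or WT niraparib replicate 2 (1.15, adjusted P = 0.15), with adjusted P from 0.018 to 0.15 over its alternatives. TNF was not called between the drugs in WT, at -0.39 on the log2 scale with a 95% interval from -0.87 to 0.10 (adjusted P = 0.24, edgeR), though it was called without WT olaparib replicate 2, at -0.63, and TNFAIP3 was at 0.34 (0.08 to 0.59, adjusted P = 0.040), below 1.5-fold.

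In PARP1 KO the members called between the drugs, ICAM1 and TNFAIP3, were both lower with niraparib. ICAM1 stood at -0.94 on the log2 scale, niraparib against olaparib (95% interval -1.16 to -0.71, adjusted P = 2.6e-05, edgeR) and TNFAIP3 at -0.71 (-1.12 to -0.30, adjusted P = 0.0235). The TNFAIP3 call was lost without KO olaparib replicate 1 or 2 (adjusted P = 0.064 and 0.10) and without KO niraparib replicate 1 or 2 (adjusted P = 0.0995 and 0.0769), with adjusted P from 0.0042 to 0.10 over its alternatives (edgeR and DESeq2). NFKBIA at -0.22 and REL at -0.30 passed the adjusted P threshold below 1.5-fold (adjusted P = 0.025 and 0.048, edgeR).

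With DMSO alone, no member was called between WT and PARP1 KO cells by edgeR or DESeq2, as counted above. The median log2 difference of the 23 judged members, KO against WT, was -0.041, with 6 of them above 0, beside 0.0088 for all genes at that level. The 3 members at an unadjusted P below 0.05 were ICAM1 at -0.36 (95% interval -0.57 to -0.14, unadjusted P = 0.0017, adjusted P = 0.082, edgeR), TNFAIP3 at -0.51 (-0.86 to -0.17, unadjusted P = 0.0044, adjusted P = 0.13) and NFKB2 at -0.13 (unadjusted P = 0.0155, adjusted P = 0.23). TNFAIP3 was called lower in KO without KO DMSO replicate 1, at -0.80. Of these 3, only ICAM1 had no overlap: its KO libraries all lay below the WT libraries.

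The change with niraparib was called different between the genotypes for 9 members, and each of them was less positive in PARP1 KO than in WT. Of all tested genes, 5.2% were called lower in this test and 3.68% higher. The difference was -1.89 on the log2 scale for RELB (SE 0.173, adjusted P = 1.3e-10, edgeR), -1.05 for NFKBIB (SE 0.111, adjusted P = 3.4e-09) and -1.50 for TNFAIP3 (SE 0.234, adjusted P = 5.6e-06). For LIF it was -2.25 (SE 0.470, adjusted P = 3.55e-04, edgeR) and for IL32 -2.45 (SE 0.447, adjusted P = 6.1e-05). NFKB1, ICAM1 and BIRC3 had smaller differences of -0.66, -0.82 and -0.70 (edgeR, adjusted P = 3.9e-06, 4.8e-05 and 3.6e-04). TNF was at -0.98 (SE 0.346, adjusted P = 0.035, edgeR), and its call was lost without KO niraparib replicate 1 or 3 (adjusted P = 0.078 and 0.055), KO DMSO replicate 2 (0.16), WT niraparib replicate 2 (0.089) or WT DMSO replicate 1 or 3 (0.073 and 0.10), with adjusted P from 0.0084 to 0.16 over its alternatives. NFKB2, RELA, TNIP1 and BIRC2 passed the adjusted P threshold below 1.5-fold (edgeR) and were also less positive in PARP1 KO. NFKBIA went the other way at 0.28 (adjusted P = 0.015, edgeR), below 1.5-fold. CCL2, at -1.95 with a 95% interval from -3.72 to -0.18, did not pass (adjusted P = 0.11, edgeR).

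With olaparib the difference between genotypes was called for RELB alone among the 30 members tested with edgeR, at -0.87 on the log2 scale (95% interval -1.23 to -0.52, adjusted P = 0.0037). NFKBIB at -0.49 and ICAM1 at -0.51 passed the adjusted P threshold below 1.5-fold (adjusted P = 0.013 and 0.049, edgeR), and both were called without KO olaparib replicate 1, at -0.60 and -0.59, as was ICAM1 without WT DMSO replicate 2, at -0.59. TNF at -0.85 (95% interval -1.54 to -0.16, adjusted P = 0.195, edgeR), TNFAIP3 at -0.44 (-0.91 to 0.02, adjusted P = 0.35), LIF at -0.98 and IL32 at -0.99 (adjusted P = 0.32 and 0.29) did not pass, so a difference between genotypes in these olaparib changes was not shown. The median difference over the 23 judged members was -0.41 for niraparib, with 2 above 0, and -0.18 for olaparib, with 3 above 0, beside 0.0027 and -0.0155 for all genes at that level. The plot of drug effects by genotype sets each member's change in WT against its change in PARP1 KO, with both drugs in panels of their own.

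**Figure D4:**
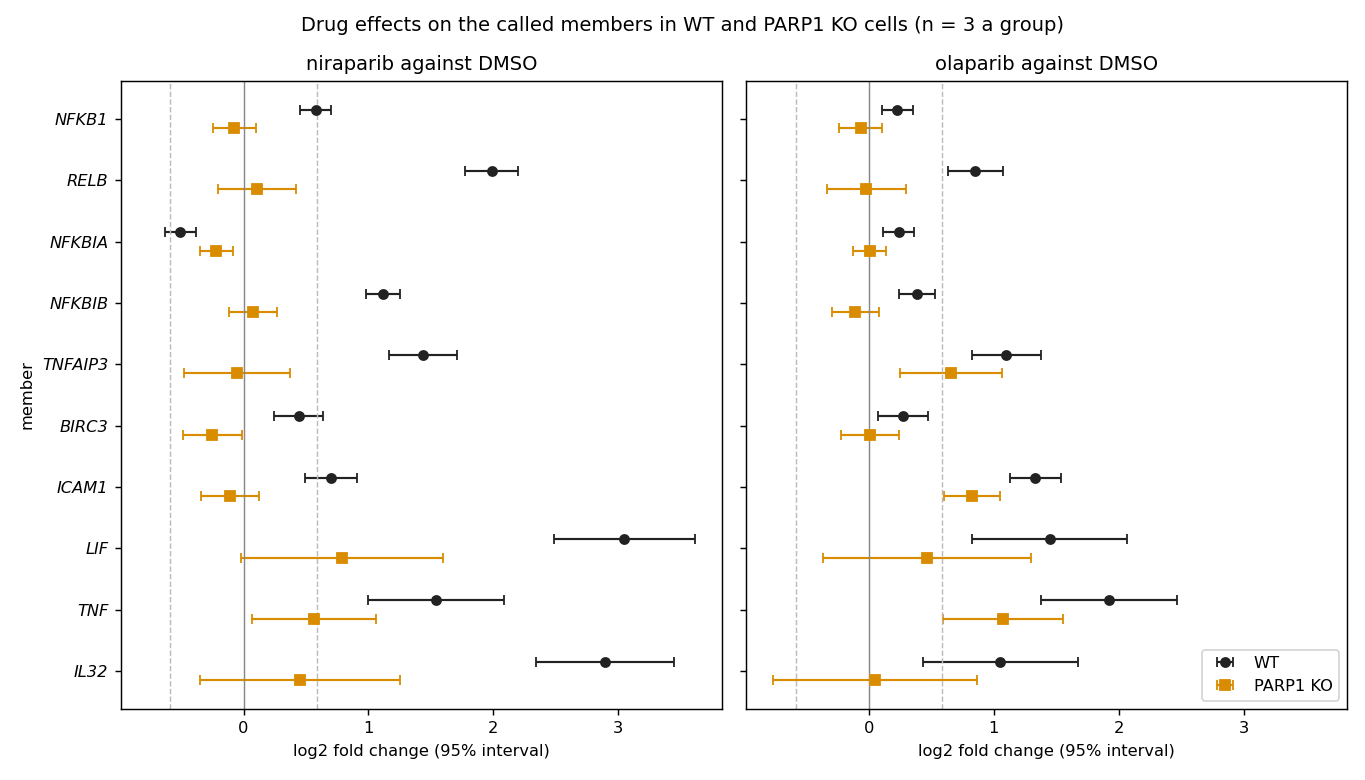
Log2 fold change against DMSO (horizontal axis, edgeR) in WT (black circles) and PARP1 KO (orange squares) for the called members other than CCL2, with whiskers for 95% intervals, dashed lines at 1.5-fold and a panel for each drug. With niraparib RELB is at 1.99 in WT and 0.11 in PARP1 KO, and with olaparib ICAM1 is at 1.33 in WT and 0.83 in PARP1 KO.

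The other genes of the pathway, 86 that were matched and 60 of them at or above 0.5 CPM, gave 14 genes called higher and 1 lower of 70 tested with niraparib in WT, where 8.1% and 5.72% of all tested genes were called. Higher were 4 of the 26 upstream kinases and adaptors tested, 4 of 12 receptors and 6 of 25 other target genes, and of the 7 tested receptors of the listed cytokines 0 were called by edgeR, with 0 at an unadjusted P below 0.05. Olaparib in WT had 4 called higher and 0 lower (2.06% and 1.98% of all tested genes), and niraparib against olaparib in WT had 7 higher and 1 lower (5.62% and 3.33%). In PARP1 KO, niraparib had 0 of 69 called by edgeR and 0 by DESeq2, with 5 at an unadjusted P below 0.05. Of all tested genes, 0.0136% were called higher there and 0% lower (edgeR). Olaparib in PARP1 KO had 2 higher (0.467% of all tested genes). Niraparib against olaparib in PARP1 KO had 0 of 69 called by edgeR and 0 by DESeq2, where 0.622% of all tested genes were called higher and 0.449% lower. Of the 69, 23 were at an unadjusted P below 0.05 and 15 past the adjusted P threshold (edgeR) at less than 1.5-fold. Of all tested genes, 10% passed that threshold at any fold change. The genotypes with DMSO had 0 of 73 called by either tool (0.0608% of all tested genes higher in KO and 0.0851% lower, edgeR). Of the 73, 16 were at an unadjusted P below 0.05 and 2 past the adjusted P threshold (edgeR) at less than 1.5-fold, which 1.39% of all tested genes passed at any fold change. The interaction for niraparib had 13 lower and 1 higher (5.2% and 3.68% of all tested genes). For olaparib it had 0 by edgeR or DESeq2 (0.381% of all tested genes lower and 0.276% higher, edgeR). There, 17 of 73 were at an unadjusted P below 0.05 and 3 past the adjusted P threshold (edgeR), which 2.27% of all tested genes passed.

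Among the named genes, TNFRSF12A, the receptor of TWEAK, was at 74.7 ± 4.90 CPM in WT with DMSO, 214 ± 16.1 CPM with niraparib and 88.8 ± 1.86 CPM with olaparib (mean ± SD, n = 3), and at 85.7 ± 3.22, 99.9 ± 4.30 and 81.4 ± 2.77 CPM in PARP1 KO in the same order. Its log2 fold change with niraparib in WT was 1.42 (adjusted P = 1.3e-14, edgeR), its difference from olaparib 1.18 (adjusted P = 9.9e-13) and its interaction -1.22 (adjusted P = 7.1e-15). GADD45A, a stress response gene, was higher with both drugs in WT, at 1.40 with niraparib and 1.23 with olaparib (adjusted P = 9.1e-11 and 8.7e-09, edgeR), and the niraparib interaction was -1.33 (adjusted P = 8.8e-07). PLK3, IRAK2 and TLR3 rose with niraparib in WT, at log2 fold changes of 2.04, 1.28 and 1.12 (adjusted P = 4.7e-07, 1.0e-04 and 4.5e-04, edgeR), from group means of 0.829, 0.959 and 1.09 CPM with DMSO to 3.58, 2.501 and 2.58 CPM. Their niraparib interactions were -1.89, -1.63 and -1.35 (adjusted P = 2.3e-04, 7.6e-04 and 0.0033, edgeR). IFNGR2, a chain of the interferon gamma receptor, was lower with niraparib in WT at -0.69 (adjusted P = 1.2e-07, edgeR). Its interaction of 0.63 (adjusted P = 8.0e-06, edgeR) came to 0.55, below 1.5-fold, without WT niraparib replicate 2.

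With olaparib in WT, TNFSF15, a TNF family cytokine, was the other named gene at 0.85 (adjusted P = 8.7e-04, edgeR). Between niraparib and olaparib in WT, PLK3 was at 1.37, TLR3 at 0.77, IRAK2 at 0.75 and GADD45B at -0.63 (edgeR, adjusted P = 6.5e-05, 0.012, 0.012 and 1.0e-07). The TLR3 call was lost without WT olaparib replicate 3 (adjusted P = 0.062) or WT niraparib replicate 1 (0.053), with adjusted P from 0.00475 to 0.0622 over its alternatives (edgeR and DESeq2). The IRAK2 call was lost without WT olaparib replicate 2 (adjusted P = 0.083, with a range from 0.00714 to 0.0827, edgeR and DESeq2), and GADD45B came below 1.5-fold without WT olaparib replicate 1 (-0.58). In PARP1 KO, GADD45A and GADD45B were higher with olaparib at 0.66 and 0.62 (adjusted P = 0.0029 and 2.6e-05, edgeR), and without KO olaparib replicate 1 they came to 0.47 and 0.52, below 1.5-fold.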

How the data were processed

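RNA of 18 T47D libraries was sequenced, and the authors deposited raw counts of reads per gene, 1 file for each library. The authors trimmed with Trimmomatic, mapped to GRCh38 with STAR, ran Picard MarkDuplicates, in the paper a step that identified and quantified duplicates (the file names read deduplicated, and whether duplicates were removed before counting was not settled here) and counted exon reads with featureCounts 2.0.0 on Ensembl release 96, reverse strand and primary alignments. Reads that overlap genes on the same strand were not counted, which touches REL, BCL3 and IL32 (43.3%, 2.1% and 4.02% of their exon bases) and no other matched member. The labels and the paper differ on RNA input, medium and extraction kit, and give the same dose and time.

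Levels (CPM) are scaled by the library total. For each fit, edgeR 4.0.16 (R 4.3.3) was run on genes whose counts summed to more than 10 (TMM scaling, robust quasi-likelihood F test, Benjamini-Hochberg over all genes tested), with 9 libraries in each genotype's fit and all 18 for the interactions and the genotype comparison. Members below a mean of 0.5 CPM are too low to judge. A standard error is the size of the log2 fold change over the root of its F statistic. The p-values measure only the spread between these libraries, which may be partly technical. The paper describes 3 dishes for each condition of its omics treatments, and how the libraries relate to them is not given. The steps were tested on simulated data.

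All 36 members were accounted for, with values in every library for those called in any comparison. From the other pathway genes, up to 5 called ones in each direction and comparison were named, by largest change at a mean of at least 1 CPM. The members and lists were chosen with earlier results of these data known. Alternatives were RLE size factors, filterByExpr, no filter, DESeq2 1.42.0, a block for replicate number, adjusted P alone, an absolute log2 fold change above 1.5, other sets of libraries in the fit, and each library left out in turn. The paper's methods name the cut at an absolute log2 fold change of 1.5, and its figure legend names 1.5-fold.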

Additional observations from a re-analysis of the deposited data

Results flagged for a closer look

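Values here are the log2 fold change in PARP1 KO minus that in WT (edgeR). By the interaction test, the change with niraparib was called different between the genotypes for 9 of the 30 members tested. Of all 24675 tested genes, 5.2% were called lower in this test and 3.68% higher. The 9 members were called lower, with NFKB1 at -0.66, RELB at -1.89, NFKBIB at -1.05, TNFAIP3 at -1.50, BIRC3 at -0.70 and ICAM1 at -0.82. The cytokine genes among them were LIF at -2.25, TNF at -0.98 and IL32 at -2.45. With olaparib the same test gave RELB at -0.87, where 0.381% of all tested genes were called lower and 0.276% higher. The report gives their adjusted P values and the libraries that decide the TNF call.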

How the results depend on the processing

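Of the 36 calls of single members, 30 passed under every alternative that kept the thresholds (RLE, filterByExpr, no filter, DESeq2, replicate block, other libraries in the fit, each library left out), 6 were lost under at least 1, and 0 reversed. The changed thresholds are not in this tally, and their counts are given below. Over 492 values, 470 kept their side of the thresholds and 22 did not. The lost calls and their values stand in the report beside their results, and the cause was not tested. All losses in this tally were with a library left out, except for TNFAIP3 with olaparib in PARP1 KO, which was also lost with the replicate block. With the threshold on adjusted P alone, the members called were 19 of 29 (niraparib in WT), 17 of 29 (olaparib in WT), 12 of 29 (niraparib against olaparib in WT), 3 of 27 (olaparib in PARP1 KO), 4 of 27 (niraparib against olaparib in PARP1 KO), 14 of 30 (niraparib interaction) and 3 of 30 (olaparib interaction), where 38%, 19%, 32.2%, 8.29%, 10%, 22.9% and 2.27% of all tested genes passed in that order (edgeR). Under this rule niraparib in PARP1 KO had 0 of 27 by edgeR and 0 by DESeq2, with 4 at an unadjusted P below 0.05 (0.109% of all tested genes passed), and the genotypes with DMSO had 0 of 30 by edgeR and 1 by DESeq2, with 3 at an unadjusted P below 0.05 (1.39%). With an absolute log2 fold change above 1.5 they were 5, 1 and 2 in WT in that order, 0 with olaparib in PARP1 KO, 0 between the drugs in PARP1 KO, 3 for the niraparib interaction and 0 for the olaparib interaction, against 3.16%, 0.682%, 1.64%, 0.0953%, 0.109%, 1.85% and 0.122% of all tested genes (edgeR). With the replicate number as a block, olaparib in PARP1 KO had 2 called. Leaving out 1 library at a time gave 8 to 9 members with niraparib in WT, 5 to 6 with olaparib in WT, 5 to 7 between the drugs in WT, 0 to 0 with niraparib, 2 to 3 with olaparib and 1 to 2 between the drugs in PARP1 KO, 8 to 9 for the niraparib interaction and 1 to 3 for the olaparib interaction (3 without KO olaparib replicate 1 and 2 without WT DMSO replicate 2). For the genotypes with DMSO it gave 0 to 1, with TNFAIP3 at -0.80 without KO DMSO replicate 1. The PARP1 level in KO was 7.18% to 7.34% of WT with each library left out in turn. Of 288 values of the 21 calls named among the other pathway genes, 7 were lost and 0 reversed. Whether replicate numbers pair the samples was not settled. The deviations of 2 libraries from their group means were correlated over genes at a mean of at least 1 CPM. The median r was -0.058 for the same number in different groups (45 pairs, -0.539 to 0.552). For different numbers it was 0.031 (90 pairs, -0.590 to 0.657). By the median, libraries of the same number were thus no closer, but these wide ranges do not settle pairing in a part of the design. The highest values were between libraries that stood apart in their groups: 0.657 for WT niraparib replicate 2 with KO niraparib replicate 3, 0.629 for the former with WT DMSO replicate 1 and 0.604 for the latter with WT DMSO replicate 1. Genes are not independent replicates, so these r describe the libraries only, and whether an unrecorded factor is shared was not tested. Members with few counts are limited by depth: 3 counts are 0.104 CPM in the smallest library and 0.0574 CPM in the largest.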
